A study of Mus musculus with 8 samples.

Results

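The core genes of the circadian clock were described in the olfactory mucosa of mice with and without a deletion of Taar enhancers. The 10 genes, chosen by symbol from the 54982 genes of the expression table, were Arntl, Clock, Per1, Per2, Per3, Cry1, Cry2, Nr1d1, Nr1d2 and Dbp, and all 10 were found once and had enough reads to be tested. Total RNA depleted of ribosomal RNA was sequenced from 4 control libraries (titled WT) and 4 libraries of the p30 T element deletion (titled ΔTE1+2). The series title asks whether trace amine-associated receptors, the Taar genes, need cis-acting enhancers for their olfactory expression. The labels give male sex, strain 129S6;C57BL/6J and postnatal day 30 for both groups, so no age or strain difference separates them in the labels. No label gives the hour of the day at which tissue was taken. The labels number the samples of a group but do not say that each is a separate animal, so p-values measure the spread between these samples, which may be technical in part.

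The circadian clock is a feedback loop of transcription that runs in most cells of the body with a period of about a day. The proteins of Arntl (also called BMAL1) and Clock form a pair that binds E-box sequences and activates the Per and Cry genes, whose proteins in turn repress that pair. A further arm runs through Nr1d1 and Nr1d2, nuclear receptors also activated by the pair, which repress Arntl. Dbp, a transcription factor that binds D-box sequences, is an output of the loop. In rhythmic tissues the RNA of Arntl therefore rises when that of Dbp and of the Nr1d genes falls.

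Reads assigned to genes numbered 31655524 to 50748777 per library. The 14 olfactory Taar genes held 2941 to 3594 reads in each control and 11 to 83 in each deletion library. Markers of mature olfactory neurons, Omp among them, were abundant in every library, at a summed 357575 to 459883 scaled reads. Deletion replicate 3 went against its label, with 15300 scaled reads of Xist, the X-inactivation RNA, against 4.86 to 86.9 in the other libraries, and 5.69 of the Y-linked Ddx3y against 2716 to 3087. Control replicate 3 gave 7.87% of its reads to the predicted gene Gm10800, against 0.00266% to 2.27% elsewhere, and had reads for 45146 genes against 31242 to 40965. Levels below are scaled reads, which are reads per gene divided by the size factor of the library.

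No clock gene passed the test between deletion and control. For 9 of the 10 members the difference on the log2 scale was smaller than the SD between libraries of a group, and for Per1 it was 0.23 against an SD of 0.21. With limma on log2(scaled reads + 1) and Benjamini-Hochberg adjustment over 21974 genes, 0 of the 10 members passed an adjusted p of 0.05, and the same fit called 0.0728% of all genes tested. At an unadjusted p under 0.05 the count of members was also 0, against 3.5% of all genes. The edgeR quasi-likelihood test called 0 members and 0.0728% of all genes, and 0 members and 4.15% of all genes at an unadjusted p under 0.05. DESeq2 gave 0 members against 0.105%, and unadjusted 0 against 4.53%. The groups overlapped for every member, while the share of genes without overlap was 2.2% over the 21974 tested genes. The adjusted p-values of the members (limma) ran from 0.869 to 0.997. Their median log2 fold change, deletion minus control, was 0.085 against 0.018 over all tested genes and 0.053 over the 14696 with a mean of 100 or more scaled reads, as all members have. Above 0 lay 9 of 10 members, 11944 of all 21974 genes and 10082 of those 14696, although Per2 was below 0 with library totals as the scaling and Per2, Per3 and Nr1d1 were below 0 with edgeR and DESeq2.

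The precision of this comparison differed widely between the members. The 95% intervals held a change within 0.944 to 1.18-fold for Cry2 and within 0.899 to 1.17-fold for Clock, on the scale of scaled reads + 1. For Dbp the interval reached from 0.633 to 2.05-fold, and for Per3 from 0.657 to 1.64-fold. Changes of that size in Dbp or Per3 could not be told from no change in this fit, which took no account of replicate numbers. The largest ratio of log2 fold change to its error was that of Per1, at 0.23 ± 0.13 (SE; limma adjusted p = 0.869).

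**Figure D1:**
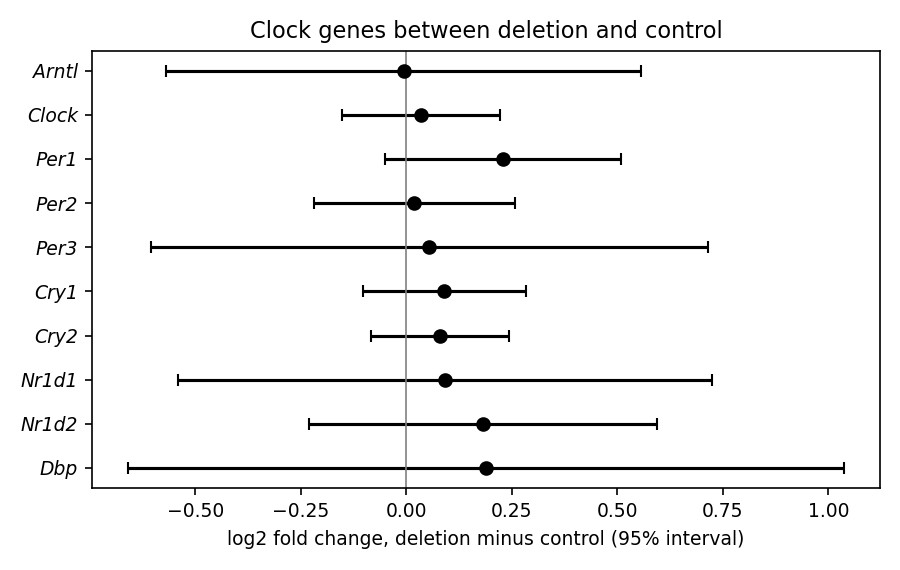
Log2 fold change of each clock gene, deletion minus control, on the log2(scaled reads + 1) scale. Points are limma estimates from 4 against 4 libraries and bars are 95% intervals; every interval takes in 0, the narrowest being that of Cry2 (-0.083 to 0.24) and the widest that of Dbp (-0.66 to 1.04).

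The bases before the starts of the members were searched for the short sequences through which the loop is known to act. RefSeq promoter windows on GRCm38.p6 matched 9 of the 10 members, in 13 windows. The 250 bases before each start were searched on both strands for the E-box CACGTG, its variant CACGTT, the D-box TTANGTAA, the core TAGGTCA of the element bound by the Nr1d proteins, and the cAMP response element TGACGTCA. Over all 32817 distinct windows, 6.02% held the E-box, 3.85% the variant, 2.06% the D-box, 2.24% the core and 1.55% the cAMP element. Below are the stretches of the members with a match, with up to 30 bases on either side, 5′ to 3′ on the strand of the gene and with the matches in capitals. Matches lay beside members whose levels, given next, varied widely (Per3, Nr1d1) and beside members that varied little (Cry1, Cry2). Members without a match likewise included variable (Dbp, Arntl) and steady (Clock) genes. A link between these letters and the spread of the levels was not tested.

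Per3 (chr4:151044786-151044900, minus strand), with 2 D-box matches starting 205 and 158 bases before the start:
Per3: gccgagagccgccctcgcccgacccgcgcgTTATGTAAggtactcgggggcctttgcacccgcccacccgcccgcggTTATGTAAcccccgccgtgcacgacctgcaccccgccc
Nr1d1 (chr11:98775378-98775435, minus strand), with the E-box variant on the other strand:
Nr1d1: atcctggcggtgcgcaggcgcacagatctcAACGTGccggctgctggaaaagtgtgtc
Per1 (chr11:69098753-69098818, plus strand), with an E-box:
Per1: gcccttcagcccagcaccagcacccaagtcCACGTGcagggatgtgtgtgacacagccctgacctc
Cry1 (chr10:85185079-85185163, minus strand), with the variant on the other strand and an E-box:
Cry1: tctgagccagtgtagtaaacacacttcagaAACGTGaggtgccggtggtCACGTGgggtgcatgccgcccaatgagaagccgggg
Cry2 (chr2:92434200-92434265, minus strand), with the variant on the other strand:
Cry2: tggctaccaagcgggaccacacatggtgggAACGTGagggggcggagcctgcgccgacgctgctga

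Per3 was the member with D-box matches, the sequence bound by the Dbp protein. Nr1d1 and Cry2 each held 1 variant E-box. The windows of Arntl, Clock, Nr1d2 and Dbp held no match to these letters, which says nothing of sites elsewhere or of other spellings. A match is a description of the letters and was not tested for binding.

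The activators Arntl and Clock were both present in every library at unequal levels. Arntl (ENSMUSG00000055116.8, GRCm38 chromosome 7, 113207465 to 113314126, plus strand) was at 1171, 910.4, 674 and 575 scaled reads in control replicates 1 to 4. In deletion replicates 1 to 4 it was at 1028, 994, 621 and 639. No library lay between 674 and 910.4. In both groups replicates 1 and 2 lay above that gap and replicates 3 and 4 below it, so the group means were close. Controls averaged 833 ± 266 and deletion libraries 821 ± 221 (SD, n = 4 each). The log2 fold change was -0.0067 ± 0.25 (SE; limma adjusted p = 0.997). Its sign changed without control replicate 1 (0.18), control replicate 2 (0.054), deletion replicate 3 (0.11) or deletion replicate 4 (0.10).

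Clock (ENSMUSG00000029238.11, chromosome 5, 76209868 to 76304792, minus strand), the partner of Arntl, varied much less. It was at 4879, 4423, 3908 and 3885 scaled reads in control replicates 1 to 4, and at 4452, 4507, 4433 and 4050.1 in the deletion replicates in that order, a range of 1.26-fold over all 8 against 2.04-fold for Arntl. Control replicate 1 was the highest library for both genes and control replicate 4 the lowest for both. Mean levels were 4274 ± 474 for control and 4361 ± 209 for deletion (SD, n = 4 each). On the log2 scale Clock differed by 0.034 ± 0.086 (SE; limma adjusted p = 0.931). Per length, in reads per kilobase of merged exon scaled to the gene reads of the library (RPKM), Clock was 2.28 to 3.91 times as abundant as Arntl.

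The Per genes encode the period proteins, repressors of the activator pair. Per2 (ENSMUSG00000055866.9, chromosome 1, 91415982 to 91459324, minus strand) was at 1772, 2487, 2220.4 and 2399 scaled reads in control replicates 1 to 4, and at 2104, 2175, 2522 and 2145 in the deletion replicates in that order. Per3 (ENSMUSG00000028957.12, chromosome 4, 151003652 to 151044665, minus strand) was at 778, 1837, 1372 and 1747 in controls and 1168, 1244, 2026 and 1354 in deletion libraries. Control replicate 1 was the lowest library and deletion replicate 3 the highest for both, with a range of 2.60-fold for Per3 and 1.42-fold for Per2. The log2 fold changes were 0.019 ± 0.11 for Per2 and 0.055 ± 0.29 for Per3 (SE; limma adjusted p = 0.970 and 0.969). Per1 (ENSMUSG00000020893.17, chromosome 11, 69095217 to 69109960, plus strand), known to respond rapidly to light and hormones, was at 695, 891, 815 and 1007 scaled reads in control replicates 1 to 4, and at 883, 1069, 1151 and 882 in the deletion replicates in that order. The Per1 means were 852 ± 131 and 996 ± 136 (SD, n = 4 each), and the same 2 libraries were its extremes.

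The cryptochrome genes Cry1 and Cry2, whose proteins are the main repressors of the activator pair, were the steadiest members beside Clock. Cry1 (ENSMUSG00000020038.10, chromosome 10, 85131700 to 85185064, minus strand), on the same chromosome as the Taar genes, was at 2211, 1759, 1753 and 1772 scaled reads in control replicates 1 to 4, and at 2021, 1931, 1897 and 2091 in the deletion replicates in that order. Its control replicate 1 stood above the other controls, which lay between 1753 and 1772. Cry2 (ENSMUSG00000068742.11, chromosome 2, 92403646 to 92434043, minus strand) was at 2721, 2840.2, 2827 and 3278 in controls and 3162, 3091, 3079.6 and 2969 in deletion libraries. Cry1 was highest, and Cry2 lowest, in control replicate 1. Their log2 fold changes were 0.089 ± 0.088 and 0.080 ± 0.074 (SE; limma adjusted p = 0.869 each).

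Nr1d1 and Nr1d2, which encode the heme-binding repressors REV-ERB alpha and beta, varied with different libraries at the top. Nr1d1 (ENSMUSG00000020889.11, chromosome 11, 98767932 to 98775333, minus strand) was at 313, 868, 501 and 669 scaled reads in control replicates 1 to 4, and at 529.6, 554, 756 and 529.7 in the deletion replicates in that order. Nr1d2 (ENSMUSG00000021775.11, chromosome 14, 18204054 to 18239127, minus strand) was at 3210, 3578, 4257 and 5350.5 in controls and 3801, 3754, 5702 and 5312 in deletion libraries. Control replicate 2 had the highest level of Nr1d1 but the second lowest of Nr1d2, and control replicate 1 was the lowest for both. The per-length ratio of Nr1d1 to Nr1d2 was 0.426 in control replicate 2 and 0.172 to 0.259 elsewhere. Group means were 588 ± 236 for control and 592 ± 109.9 for deletion for Nr1d1, and 4099 ± 940.4 and 4642 ± 1011 for Nr1d2 (SD, n = 4 each). The log2 fold changes were 0.091 ± 0.28 and 0.18 ± 0.18 (SE; limma adjusted p = 0.943 and 0.872).

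Dbp (ENSMUSG00000059824.12, chromosome 7, 45705088 to 45710203, plus strand) had the widest range of the 10 genes, 3.06-fold. It was at 412, 769.9, 787 and 1262 scaled reads in control replicates 1 to 4, and at 657, 614, 1262 and 1045 in the deletion replicates in that order. The lowest library rested on 509 reads (95% counting interval 377 to 449.7 scaled reads) and the highest on 1283 (1194 to 1333), so the range was far wider than counting error, the only error these intervals cover. The ratio of Dbp to Arntl, which does not depend on the scaling of a library, ran from 0.352 in control replicate 1 to 2.19 in control replicate 4, and was 0.640, 0.618, 2.03 and 1.63 in deletion replicates 1 to 4. This ratio was chosen after the values were seen. The log2 fold change of Dbp was 0.19 ± 0.37 (SE; limma adjusted p = 0.911), and it was -0.098 to 0.44 with 1 library left out.

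**Figure D2:**
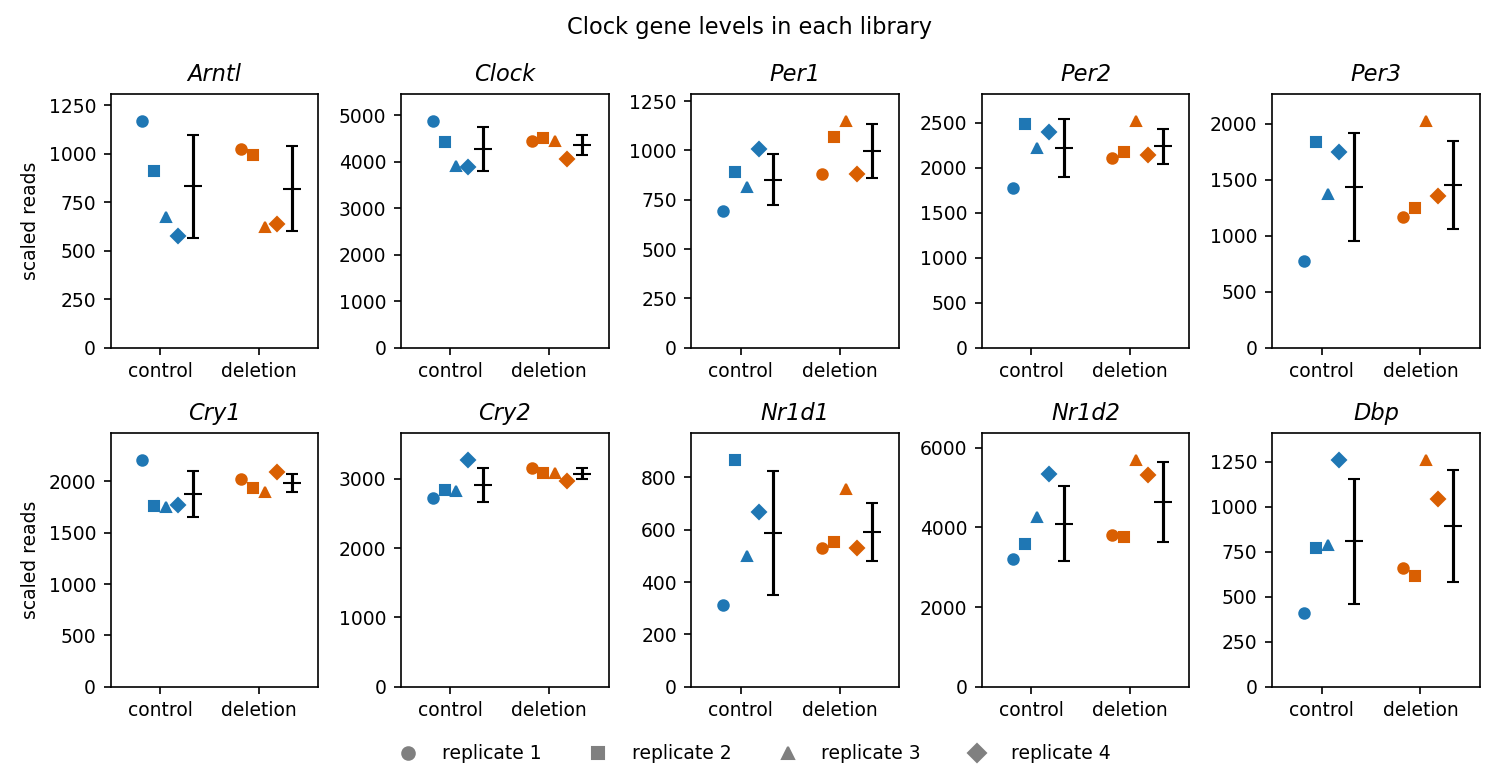
Scaled reads of each clock gene in the 4 control (blue) and 4 deletion (orange) libraries, with the marker shape giving the replicate number and the black bar the mean with its SD (n = 4). The groups overlap in all 10 panels; the points of Dbp reach from 412 to 1262 while those of Cry2 stay between 2721 and 3278.

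Exons of some members overlap genes on the opposite strand, and the strand setting of the counting is not given in the sources used here. Dbp shares 539 bases, 18% of its merged exon length, with Sphk2, which was at 1624 to 2204 scaled reads. Nr1d1 shares 263 bases (8.55%) with Thra, at 2030.1 to 2462 scaled reads. In control replicates 1 and 4, where Dbp was lowest and highest, Sphk2 was at 1922 and 1999 scaled reads. In control replicates 1 and 2, where Nr1d1 was lowest and highest, Thra was at 2366 and 2291. Reads of the shared stretches were not counted apart.

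Per length the receptor-type repressor Nr1d2 was the most abundant member and Arntl the least. Means over the 8 libraries, in RPKM, were 20.1 ± 4.19 for Nr1d2 (SD, n = 8), 14.4 ± 1.14 for Cry1, 11.8 ± 0.800 for Cry2 and 9.49 ± 1.19 for Per2. Clock followed at 7.84 ± 0.645, Dbp at 7.08 ± 2.53, Nr1d1 at 4.80 ± 1.5, Per1 at 4.09 ± 0.631, Per3 at 3.75 ± 1.09 and Arntl at 2.74 ± 0.755. Each gene overlapped in range with the next in this order, but the lowest Nr1d2 value, 14.4, lay above the highest value of Per2, 11.4. Fewer cells that express a gene and less RNA per cell cannot be told apart in tissue of mixed cell types.

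The members differed widely in how much they varied between libraries of a group. The SD between libraries of a group, pooled over both groups on the log2(scaled reads + 1) scale, was 0.59 for Dbp, 0.48 for Nr1d1, 0.47 for Per3, 0.43 for Arntl and 0.32 for Nr1d2. It was 0.21 for Per1, 0.18 for Per2, 0.12 for both Cry1 and Clock and 0.088 for Cry2. The median was 0.26 over the members against 0.15 over the 14696 tested genes with a mean of 100 or more scaled reads. Dbp was more variable than 98.2% of those genes, Nr1d1 than 97.0%, Per3 than 96.9%, Arntl than 95.6% and Nr1d2 than 89.6%. Cry2 was more variable than 12.7% of them. Counting alone would give SDs of 0.022 to 0.062 for the members.

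**Figure D3:**
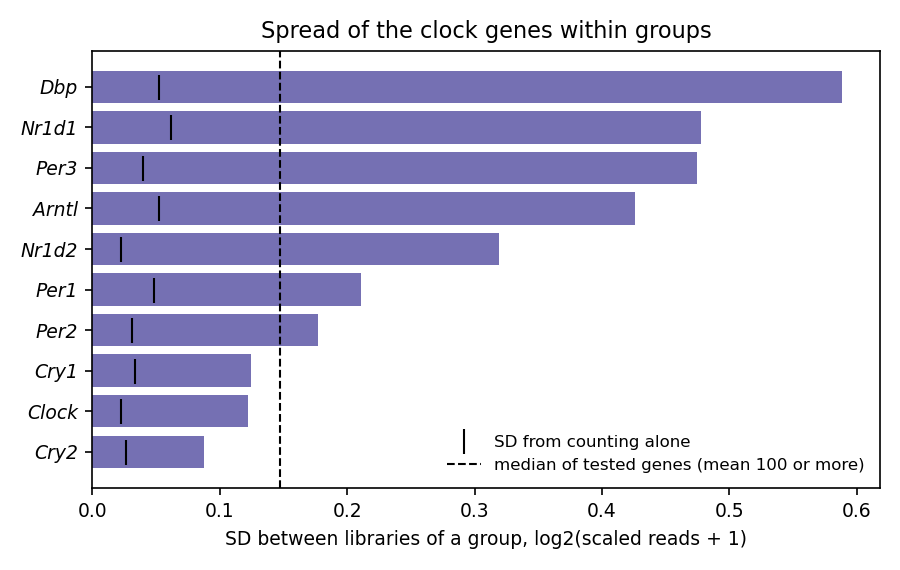
SD between libraries of a group for each clock gene on the log2(scaled reads + 1) scale (bars), the SD that counting alone would give (ticks), and the median of the 14696 tested genes with a mean of 100 or more scaled reads (dashed line, 0.15). Dbp, Nr1d1, Per3, Arntl and Nr1d2 lie between 0.32 and 0.59, and Cry1, Clock and Cry2 lie below the line.

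Some pairs of members varied together across the 8 libraries, among them Arntl opposite to Dbp and Nr1d2, but 1 pair passed the test without control replicate 1. All 45 pairs of members were correlated over the 8 libraries with exact permutation tests over 40320 pairings, two-sided, adjusted over the 45 pairs. By Pearson's r 7 pairs passed an adjusted p of 0.05, 5 positive and 2 negative, and by Spearman's rho 2 pairs passed, both of them among the 7. With values centred on their group means, 16 pairs passed. Centring ties the values of a group to each other, so they are not freely exchangeable and the permutation p-values of that setting are only approximate. A group of 4 libraries is too small for an r of its own. The permutations treat the 8 libraries as exchangeable. Yet replicates 1 and 2 of both groups had higher Arntl and lower Dbp and Nr1d2 than replicates 3 and 4. The part of that split in the correlations was not tested.

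Arntl and Dbp ran in opposite directions, with Pearson r = -0.93 (exact permutation p = 7.44e-05, adjusted p = 0.00167) and rho = -0.98 (exact p = 0.000397, adjusted p = 0.00893). Without the 2 libraries farthest from the Arntl median, control replicates 1 and 4, r was -0.88. Leaving out 1 library at a time gave r from -0.97 to -0.91, and without control replicate 1 the adjusted p was 0.130 (exact permutation over 7 libraries, r = -0.91). Arntl and Nr1d2 gave r = -0.93 (exact p = 0.00211, adjusted p = 0.0158; rho = -0.88, exact p = 0.00724, adjusted p = 0.0815), and r = -0.88 without the same 2 libraries. Nr1d2 and Dbp rose together, with r = 0.94 (exact p = 0.000843, adjusted p = 0.0126; rho = 0.90, exact p = 0.00456, adjusted p = 0.0685), and with r = 0.88 without control replicate 4 and deletion replicate 3.

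A second set of pairs joined Per2, Per3 and Nr1d1. Per2 and Per3 had the closest relation of all, with r = 0.99 (exact p = 7.44e-05, adjusted p = 0.00167) and rho = 0.98 (exact p = 0.000397, adjusted p = 0.00893), and r = 0.97 without control replicate 1 and deletion replicate 3. Nr1d1 followed Per2 with r = 0.97 (exact p = 0.00117, adjusted p = 0.0131; rho = 0.83, exact p = 0.0154, adjusted p = 0.109) and Per3 with r = 0.95 (exact p = 0.00171, adjusted p = 0.0154; rho = 0.81, exact p = 0.0218, adjusted p = 0.109), and without the same 2 libraries r was 0.91 and 0.86. Per3 and Dbp gave r = 0.86 (exact p = 0.0058, adjusted p = 0.0373; rho = 0.76, exact p = 0.0368, adjusted p = 0.138), and 0.57 without those 2 libraries. Per3 and Dbp no longer passed without any 1 of control replicates 1, 3 and 4 (r = 0.71, 0.86 and 0.85) and deletion replicates 1, 2 and 3 (r = 0.85, 0.86 and 0.82). These libraries are shared by all pairs, and control replicate 1 was the highest or the lowest library for all 10 members. Without it the count of pairs that passed was 1, Per2 with Per3 (r = 0.98, exact permutation adjusted p = 0.0268). Without deletion replicate 3, the library whose sex-linked genes went against its label, it was 11, with r = -0.92 for Arntl and Dbp, without control replicate 2 it was 16 and without control replicate 4 it was 4.

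Other textbook pairs did not pass over all 8 libraries, though some of them passed in other settings. Arntl and Nr1d1 gave r = -0.48 (exact p = 0.231, adjusted p = 0.305; rho = -0.55, exact p = 0.171, adjusted p = 0.335), and r was 0.00032 without control replicates 1 and 4. Leaving out control replicate 1 alone gave r = -0.083, control replicate 4 alone -0.44 and control replicate 2 alone -0.72, and the other omissions lay within that range. Nr1d1 and Nr1d2 gave r = 0.45 (exact p = 0.271, adjusted p = 0.333; rho = 0.33, exact p = 0.428, adjusted p = 0.520), r = 0.69 without control replicates 1 and 2, and r = 0.82 without control replicate 2 alone (adjusted p = 0.0387, exact permutation over 7 libraries). Per1 and Per2 gave r = 0.75 (exact p = 0.0322, adjusted p = 0.112) and rho = 0.69 (exact p = 0.0694, adjusted p = 0.208). Their r was 0.12 without control replicate 1 and deletion replicate 3. Without control replicate 2 alone it was 0.86 (adjusted p = 0.0446, exact permutation over 7 libraries). Cry1 and Cry2 gave r = -0.23 (exact p = 0.569, adjusted p = 0.582; rho = -0.048, exact p = 0.935, adjusted p = 0.935), and r = 0.49 without control replicate 1 and deletion replicate 4. The activators Arntl and Clock were at r = 0.83 (exact p = 0.0127, adjusted p = 0.0609) and rho = 0.81 (exact p = 0.0218, adjusted p = 0.109). Without control replicates 1 and 4 their r was 0.64. This pair passed without deletion replicate 3 (r = 0.97, adjusted p = 0.0217) and without control replicate 3 (r = 0.84, adjusted p = 0.0335), by exact permutation over 7 libraries. With group means removed it also passed (r = 0.84, permutation adjusted p = 0.0312, approximate after centring).

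**Figure D4:**
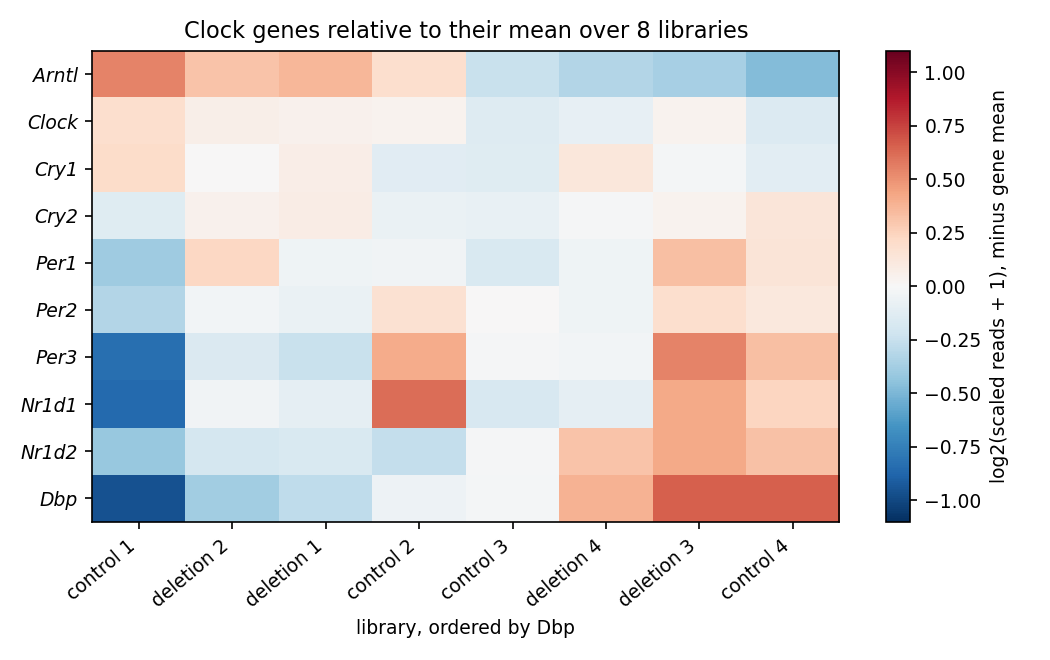
Log2(scaled reads + 1) of each clock gene minus its mean over the 8 libraries (colour), with libraries ordered from the lowest Dbp (control replicate 1, 412 scaled reads) to the highest (control replicate 4, 1262). Control and deletion libraries are mixed along the order, and replicates 1 and 2 of both groups come before replicates 3 and 4. Arntl passes from above to below its mean as Nr1d2 and Dbp pass from below to above. Nr1d1 and Per3 also stand high in control replicate 2.

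**Figure D5:**
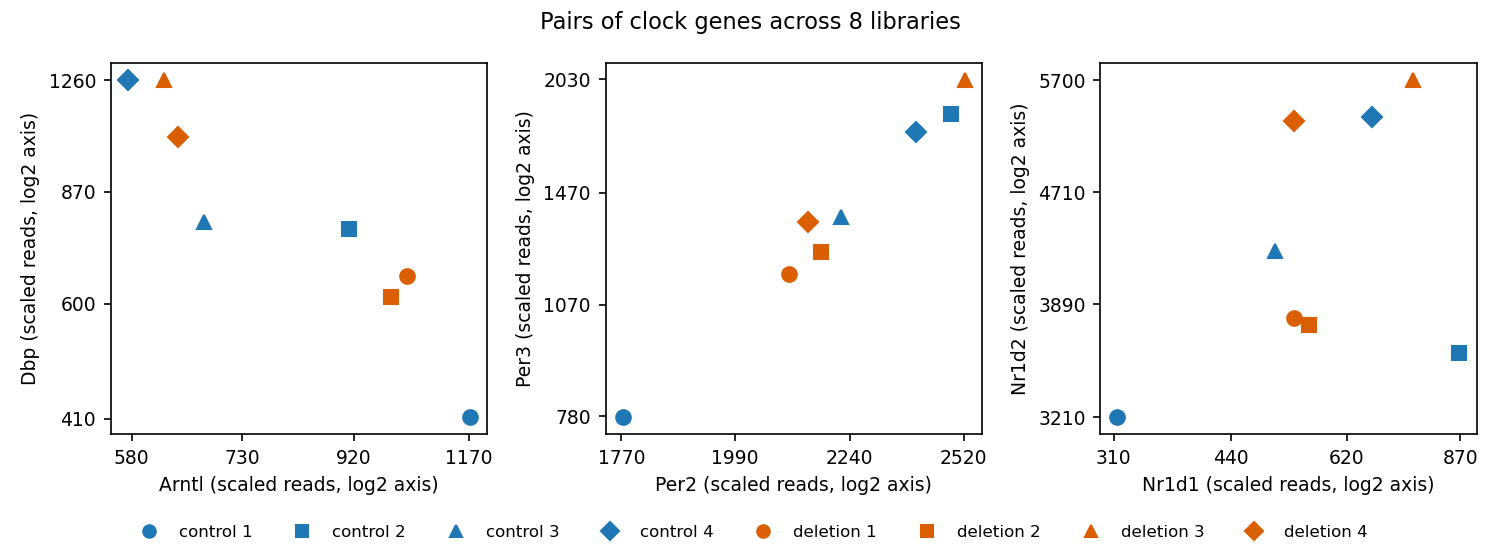
Scaled reads of 3 pairs of clock genes on log2 axes, 1 point per library (control blue, deletion orange, shape giving the replicate number). Arntl and Dbp fall along a descending line (r = -0.93) and Per2 and Per3 along a rising one (r = 0.99), while control replicate 2, at 868 scaled reads of Nr1d1 and 3578 of Nr1d2, lies away from the other libraries in the third panel.

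The cell makeup of the libraries at the ends of this order was compared by marker lists. None of these held a called gene, against 0.0728% of all tested genes called. In control replicate 1, where Dbp was lowest, the summed scaled reads of 6 mature neuron markers were 455296, against 436488 in control replicate 4 and 441266 in deletion replicate 3, where Dbp was highest. The 3 horizontal basal cell markers summed to 3314 in control replicate 1 against 4837 and 4556 in those libraries. The 3 erythroid markers summed to 824 against 2336 and 1288, within ranges of 824 to 2336 in controls and 1008 to 1424 in deletion libraries. Over all libraries, mature neuron markers ran from 357575 to 455296 in controls and from 441266 to 459883 in deletion libraries, and the 5 respiratory markers from 168956 to 313761 and from 326543 to 356655, with control replicate 2 the lowest for both. Immature neuron markers (3 genes) ran from 13437 to 18272 and from 15399 to 18663, sustentacular markers (4 genes) from 156941 to 229056 and from 233336 to 240276, and globose basal markers (4 genes) from 3483 to 4459 and from 2786 to 4139. The respiratory and sustentacular sums were thus higher in every deletion library than in any control. Most of the respiratory sum came from Bpifa1, and most of the sustentacular sum from Cyp2g1 and Cbr2. These sums therefore mainly follow their most abundant genes, and the overlap of the single markers was not tested. Groups without overlap made up 2.2% of single tested genes, a share that was not worked out for sums. Bone, cartilage and muscle markers (5 genes) summed to 1154 to 1561 and 1109.9 to 1391, and olfactory bulb markers (4 genes) to 3441 to 3950.2 and 3286 to 3535. The part of cell makeup in the spread of the clock genes was not tested.

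Other genes of the clock loop were also uncalled between the groups, and several varied with Dbp or opposite to it. Over all tested genes the same limma fit called 0.0728%, with 3.5% at an unadjusted p under 0.05. Counts of 0 in the short lists below are thus near the share over all genes. Of 11 further loop genes, 0 passed in either direction (limma; 0 at an unadjusted p under 0.05; median log2 fold change 0.017), and those with the smallest p included Bhlhe40, Tef and Hlf. Mean scaled reads of Bhlhe40, a repressor of E-box genes, were 1184 ± 155 for control and 1404 ± 177 for deletion (SD, n = 4 each). Tef and Hlf, close relatives of Dbp, were at 8131 ± 1475 and 8857 ± 1243, and at 1946 ± 277 and 2129 ± 358. Of 10 genes listed under kinases and ubiquitin ligases of the clock, of which Timeless is neither, 0 passed. At an unadjusted p under 0.05 the count was also 0, and the median log2 fold change was 0.017. Those with the smallest p included Fbxw11, Fbxl21 and Csnk2a1, at log2 fold changes of 0.14, -0.42 and 0.087. Fbxl21 was low, at 30.8 to 59.2 scaled reads, with an SE of 0.24. Fbxw11 was at 2924 to 3668 and Csnk2a1 at 5606 to 6799. Of 7 listed output genes 6 were found by symbol and 4 had enough reads, and 0 of those 4 passed (0 at an unadjusted p under 0.05, median 0.036). They were the protease gene Usp2 (0.38), the vasopressin gene Avp (-0.35), the kinase gene Wee1 (0.062) and the cell cycle inhibitor gene Cdkn1a (0.010).

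Likeness to Dbp and Arntl was measured by Pearson r over the same 8 libraries, as a description, among 14686 other tested genes with a mean of 100 or more scaled reads. The 5 genes most like Dbp were Lrrn2 (r = 0.98), Ciart (0.95), Steap3 (0.95), Eda (0.95) and Grem1 (0.95). Ciart, a known repressor of the clock, ranked second and was also one of the further loop genes. It ran from 56.7 scaled reads in control replicate 1 to 141 in control replicate 4. The 5 genes most like Arntl were Eml6 (r = 0.98), the noncoding RNA RP23-443N7.2 (5031425E22Rik in the reference annotation; 0.97), S100a5 (0.97), Scg3 (0.97) and Olfm1 (0.97). S100a5, a calcium-binding protein gene of olfactory neurons, ran from 33482 scaled reads in deletion replicate 3 to 83193 in control replicate 1. Of the 10 further loop genes abundant enough, 4 had an absolute r with Dbp over 0.7. So did 3 of the 4 output genes, 0 of 9 genes of the kinase and ubiquitin ligase list and 6.28% of all 14686 genes. Of the loop and output genes past 0.7, Nfil3 (r = -0.75) and Avp (r = -0.91) ran opposite to Dbp. The others past 0.7 rose with it.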

How the data were processed

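The samples are 4 control and 4 deletion libraries of olfactory mucosa. They were made from RNeasy-purified RNA with a stranded, ribodepleted TruSeq kit, per the labels, so unspliced RNA can add to gene values. The submitters' processing notes name STAR 2.6.0, DESeq2 and GRCm38.p6. No source used here names the read counter. The authors deposited a signal per gene and sample, read counts divided by a size factor. In every column 100% of non-zero values were whole multiples of the smallest within 0.001, and whole reads were recovered from them. Per the file headers the table also holds the authors' log2 fold change with its error, a test score and raw and adjusted p-values, which are not printed here.

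Since the values are scaled, limma 3.58.1 (R 4.3.3; trend, robust) on log2(scaled reads + 1) was the main test, after the filterByExpr function of edgeR 4.0.16 (minimum count 10). It was checked on simulated data. The edgeR quasi-likelihood test and DESeq2 1.42.0 on recovered reads, other pseudocounts (0.5, 5), filters, library totals and leaving out each library were alternatives. Correlations were computed in numpy 2.4.6. Members, lists, and the rule for named genes were chosen with earlier results of these data known. The rule takes the 10 members, the 4 genes with the smallest p of each list, and the 5 genes most like Dbp and most like Arntl. Some genes that the rule takes are not reported here. Merged exon lengths and coordinates (1-based, GRCm38) are from GENCODE M21, which matched 54161 of 54982 rows. Intervals on reads are exact Poisson intervals.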

Additional observations from a re-analysis of the deposited data

Results flagged for a closer look

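In 20 groups of 4 libraries (10 genes in 2 groups), 4 values lay far from the other 3 of their group, by a gap to the nearest of them, relative to the whole range, past the 95% limit of Dixon's test. Chance gives about 1 such value in 20 groups, and the genes share libraries. Per2 (2522 scaled reads) and Nr1d1 (756) stood above the other deletion libraries in deletion replicate 3, the library whose sex-linked genes went against its label. Cry1 stood above the other controls in control replicate 1 (2211 scaled reads), and Clock stood below the other deletion libraries in deletion replicate 4 (4050.1).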

How the results depend on the processing

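No clock gene was called under any of the 16 alternative settings. The count of all genes called was 10 with a mean of at least 50 reads, and 13 to 31 with 1 library left out (31 without deletion replicate 4). Leaving out 1 library, log2 fold changes ran from -0.17 to 0.18 for Arntl, -0.0095 to 0.10 for Clock, -0.085 to 0.078 for Per2, -0.21 to 0.20 for Per3, -0.18 to 0.31 for Nr1d1 and -0.098 to 0.44 for Dbp, so the sign of these 6 changed. Per2 was also at -0.010 with library totals. With edgeR and DESeq2 respectively, Per2 was at -0.010 and -0.013, Per3 at -0.0081 and -0.012 and Nr1d1 at -0.013 and -0.017. Per1, Cry1, Cry2 and Nr1d2 stayed above 0 throughout. The count of correlated pairs was 16 with group means removed, 2 with Spearman's rho (chosen after seeing the data), and 1 to 16 with 1 library left out. Over those omissions r ran from -0.97 to -0.91 for Arntl and Dbp (adjusted p 0.00446 to 0.130, exact permutation), 0.71 to 0.94 for Dbp and Per3 (adjusted p 0.0143 to 0.493), 0.063 to 0.82 for Nr1d1 and Nr1d2, 0.46 to 0.86 for Per1 and Per2, and -0.46 to 0.26 for Cry1 and Cry2. With group means removed, Per1 and Per2 gave r = 0.85 (permutation adjusted p = 0.0312, approximate after centring). Over all tested genes, same-numbered samples correlated at 0.325, 0.0878, -0.168 and 0.0533 in their deviations from the group mean, which shows no uniform pairing. For Arntl, Dbp and Nr1d2, however, replicates 1 and 2 of both groups lay all above or all below replicates 3 and 4. With the replicate block, 14 genes were called, 0 of them clock genes. The block lowered the SE of the log2 fold change from 0.25 to 0.10 for Arntl, from 0.18 to 0.091 for Nr1d2 and from 0.37 to 0.20 for Dbp, so the intervals of these genes depend on that choice. The causes of these shifts were not tested.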

Other observations

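Genes induced by glucocorticoids, which are themselves rhythmic hormones, were not called between the groups (0 of 6 by limma against 0.0728% of all tested genes; 1 at an unadjusted p under 0.05, against 3.5%; median log2 fold change 0.14). The 4 with the smallest p were Sgk1, Klf9, Tsc22d3 and Fkbp5. Sgk1, a kinase gene, averaged 3788 ± 924 scaled reads over controls against 4939 ± 436 over deletion libraries (SD, n = 4 each; limma adjusted p = 0.869), and the log2 fold changes of the others were 0.27, 0.47 and 0.012. Zbtb16, named here after its values were seen, ran from 34.8 scaled reads in control replicate 1 to 317 in control replicate 4, the libraries with the lowest and highest Dbp. It was the 1 gene of the 6 with an absolute r with Dbp over 0.7. Tsc22d3 was at r = 0.60, Klf9 at 0.57, Fkbp5 at 0.41, Ddit4 at 0.011 and Sgk1 at -0.13 over the 8 libraries.

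Temperature-responsive genes were likewise uncalled, 0 of 6 by limma against 0.0728% of all tested genes. At an unadjusted p under 0.05 the count was 0 against 3.5%, and their median log2 fold change was 0.12. Those with the smallest p were Rbm3 (0.13), Hsph1 (0.12), Hspa1b (0.22) and Hsp90aa1 (0.11, each a log2 fold change). The heat shock gene Hspa1b was at 425 to 441 scaled reads in control replicate 4 and deletion replicate 3 and at 209 to 251 in the 5 libraries with the lowest Dbp. It was the 1 gene of the 6 with an absolute r with Dbp over 0.7 (r = 0.84), and the others ran from r = -0.59 for Hsp90aa1 to 0.24 for Hsph1.

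Avp, the vasopressin gene, had a wider range than any clock gene, 5.97-fold. It was at 402, 189, 87.6 and 98.3 scaled reads in control replicates 1 to 4, and at 208, 195, 67.3 and 90.4 in the deletion replicates in that order, highest where Arntl was highest. Its likeness to Arntl was r = 0.95 over the 8 libraries, as a description.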
